A study of Mus musculus with 16 samples.

Results

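The 43 genes described here encode lysosomal hydrolases, lysosomal membrane proteins, the transcriptional regulators *Tfeb* and *Tfe3*, and the core machinery and receptors of autophagy. They were chosen by gene symbol, and all 43 were found among the 56941 genes of the count table. Of these, 42 had enough counts to be tested. The exception was *Ctss*, cathepsin S, with 0 to 9 counts per library. The genes were measured by bulk RNA sequencing in cultures of gingival fibroblasts (mGF), which grow out of explanted gum tissue, taken from WT C57Bl6 mice aged 3 to 6 months. The cells were used at passages 2 to 8. They were kept for 24 h in BSA, the albumin vehicle (control), in 1 ng/mL IL-1β, in 200 µM palmitate as a complex with BSA, or in palmitate + IL-1β at the same doses. Each condition had 4 libraries, numbered 1 to 4 (BSA), 5 to 8 (IL-1β), 9 to 12 (palmitate) and 13 to 16 (palmitate + IL-1β). The labels do not say whether the 4 libraries came from separate mice or cultures, so p-values measure the spread between these libraries, which may be technical.

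Lysosomes are acidic organelles in which hydrolases break down proteins, sugars and lipids. In autophagy, a membrane that grows around cytoplasmic cargo closes into an autophagosome, which then fuses with a lysosome. ULK1 and the Beclin 1 complex start the process, a conjugation system of ATG proteins attaches ATG8 proteins such as LC3 and GABARAP to the membrane, and receptors such as p62 (*Sqstm1*) tie ubiquitylated cargo to ATG8. TFEB and TFE3 are related transcription factors that, when they enter the nucleus, bind the CLEAR element in the promoters of many lysosomal genes. Palmitate, a long-chain saturated fatty acid, is stored or oxidised by cells, and IL-1β is an inflammatory cytokine. The mRNA levels reported here measure neither protein nor autophagic flux.

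The gene counts of a library summed to 21234789 at the lowest and 92752515 at the highest. Palmitate library 10 was the deepest, and the next reached 35329711 counts. Levels are given as CPM, the counts of a gene relative to the size of the library, on library sizes scaled by the trimmed mean of M-values (TMM), and the limit that a count of 0 allows, taken as 3 counts, corresponds to 0.0331 to 0.146 CPM. Such limits cover counting error only. The fibroblast label was checked against marker genes. The summed CPM of 7 of them (*Col1a1*, *Col1a2*, *Pdgfra*, *Thy1*, *Vim*, *Lum* and *Dcn*) was 26498 to 27992 in BSA, 27955 to 28672 with IL-1β, 24193 to 25863 with palmitate and 23671 to 25577 with palmitate + IL-1β. The palmitate libraries were thus below the BSA libraries for this sum. Its members did not move together, as *Vim* (-0.31), *Col1a2* (-0.17) and *Thy1* (-0.15) fell with palmitate on the log2 scale, *Pdgfra* rose (0.54), and *Col1a1*, *Dcn* and *Lum* did not pass. For macrophage and other leukocyte markers, which matter here because such cells are rich in lysosomal hydrolases, the sum of 10 genes was between 1.47 and 2.50 CPM in every library, with *Tyrobp* at 0 throughout. It was 1.55 to 2.04 CPM in BSA and 2.19 to 2.50 CPM with IL-1β, so that every IL-1β library lay above every BSA library. Most of this sum was 1 gene, *Csf1r*, with a mean of 1.45 CPM in BSA and 1.82 CPM with IL-1β. The rise of *Csf1r* with IL-1β did not pass (0.33 ± 0.18, adjusted p = 0.244). The part of either marker list in the results below was not tested. Palmitate + IL-1β library 16 was the lowest of its 4 for 22 of the 42 tested genes, and for 14 of the 21 tested hydrolases, a number that includes their activator *Psap*. IL-1β library 8 was likewise the lowest of its 4 for 22 genes, 12 of them hydrolases. In each of the other 14 libraries that number was between 0 and 15 genes. The counts of changed genes in comparisons that use these libraries are therefore also given without them.

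To set the members side by side, CPM was divided by the summed exon length of each gene. In BSA, *Lamp1*, a heavily glycosylated protein of the lysosomal membrane, stood highest at 168 ± 3.39 CPM per kb (mean ± SD, n = 4). It was followed by *Psap*, the precursor of the saposins that help hydrolases reach their lipids, at 156 ± 1.83 CPM per kb. *Sqstm1* stood behind these at 122 ± 4.49 CPM per kb. Next came the aspartic protease cathepsin D (*Ctsd*, 79.7 ± 2.26 CPM per kb), the ATG8 protein *Gabarap* (78 ± 6.31 CPM per kb) and the cysteine protease cathepsin B (*Ctsb*, 72.8 ± 5.29 CPM per kb). The ranges of these 3 neighbours touched, so that their order is not settled. Cathepsin K (*Ctsk*), best known from bone resorption, was at 52.6 ± 3.58 CPM per kb and cathepsin L (*Ctsl*) at 49.5 ± 4.72 CPM per kb, again within the spread of each other. At the other end, *Tfeb* had 0.849 ± 0.0328 CPM per kb, while its relative *Tfe3* had 4.64 ± 0.175 CPM per kb. *Ctss*, a cathepsin of antigen-presenting cells, was at 0 to 0.0323 CPM in BSA and at 0.0331 to 0.332 CPM with palmitate + IL-1β, at most 9 counts in a library. With IL-1β, with palmitate and with both agents, *Sqstm1* stood at the top of the list. Lengths from 1 canonical transcript per gene in place of all exons, an alternative chosen after seeing the data, moved *Lamp2* from place 9 to place 2 and *Map1lc3b* from place 19 to place 5 in BSA, so that only coarse differences in level between genes should be read from this order.

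**Figure D1:**
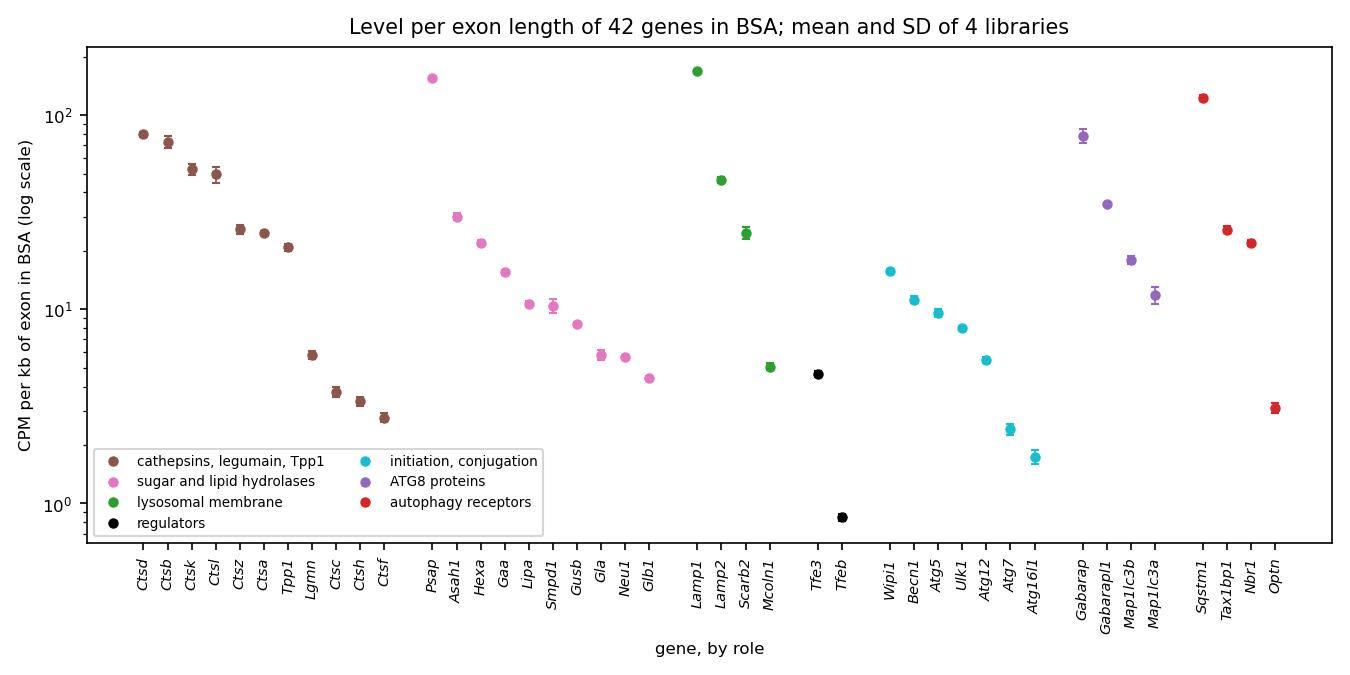
Level of the 42 tested genes in BSA, as CPM per kb of exon on a log scale, grouped by role. Points are means and bars the SD of 4 libraries. *Lamp1*, *Psap* and *Sqstm1* lie above 100 CPM per kb and *Tfeb* lies lowest, below 1 CPM per kb.

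Palmitate raised and lowered comparable numbers of these genes. Of the autophagy receptors 3 of 4 and of the initiation machinery 3 of 7 were higher, and most of the called hydrolases and ATG8 proteins were lower. Against BSA, 23 of 42 genes (54.8%) passed the test at an adjusted p under 0.05 (edgeR quasi-likelihood test, Benjamini-Hochberg over 16306 genes), 11 higher and 12 lower. Of all genes tested, 37.3% passed in this comparison, 19.8% higher and 17.5% lower. Apart from the test, the 4 palmitate libraries lay wholly above those of BSA in 11 genes and wholly below them in 11. Such a separation held for 36.0% of all genes (19.5% higher and 16.5% lower). The separated lower genes include *Psap*, which did not pass, and leave out *Map1lc3a* and *Map1lc3b*, which did. The median log2 fold change of the 42 genes was 0.00, as it was for all genes (-0.00). Without regard to sign, the median was 0.134 for the 42 genes and 0.190 for all genes. It was 0.0688 beside 0.127 with IL-1β and 0.159 beside 0.242 with both agents. With palmitate, the share that passed was thus larger than that of all genes, while the median size was smaller. The counts of both sets differ, as all 42 genes had at least 10 counts in every library, beside 13554 of the 16306. No set of genes matched for counts was compared. The changes were small other than that of *Sqstm1*: the remaining 41 lay between -0.35 and 0.46. IL-1β alone changed fewer, 6 of 42 (14.3%, 4 higher and 2 lower) beside 15.1% of all genes (10.1% higher and 4.97% lower). With palmitate + IL-1β against BSA, 28 of 42 (66.7%) passed, 13 higher and 15 lower, beside 47.3% of all genes (24.8% higher and 22.5% lower). Adding IL-1β to palmitate changed 6 (14.3%), 3 each way (5 higher and 1 lower without library 16), beside 9.81% of all genes (5.71% higher and 4.10% lower). Adding palmitate to IL-1β changed 23 (54.8%), 12 higher and 11 lower, beside 35.0% of all genes (18.9% higher and 16.1% lower). Palmitate and IL-1β differed directly in 20 genes (47.6%), 12 higher and 8 lower with palmitate, beside 31.6% of all genes (16.5% higher and 15.2% lower). The interaction, in which the log2 effect of one agent depends on the other, passed in 1 gene (2.38%), *Sqstm1*, and was negative. Of all genes, 1.99% passed (0.159% positive and 1.83% negative). The call of *Sqstm1* was lost in 10 of the 16 fits that left out 1 library.

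The balance of higher and lower calls depended on the scaling. With upper-quartile in place of TMM normalization, the median of all genes moved by less than 0.1 on the log2 scale, but 9 of 42 genes were higher and 19 lower with palmitate, 2 higher and 6 lower with IL-1β, and 8 higher and 21 lower with both agents. Among all genes called, the share that was higher moved in the same step from 53.1% to 37.1% with palmitate, from 67.1% to 43.5% with IL-1β and from 52.4% to 38.7% with both. Without library 16, palmitate + IL-1β gave 14 higher and 11 lower against BSA, 13 higher and 7 lower against IL-1β, and 5 higher and 1 lower against palmitate. Without library 8, IL-1β against BSA gave 4 higher and 0 lower, adding palmitate to IL-1β gave 12 higher and 14 lower, and palmitate against IL-1β gave 12 higher and 6 lower. The interaction was called in 1 gene without either library.

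**Figure D2:**
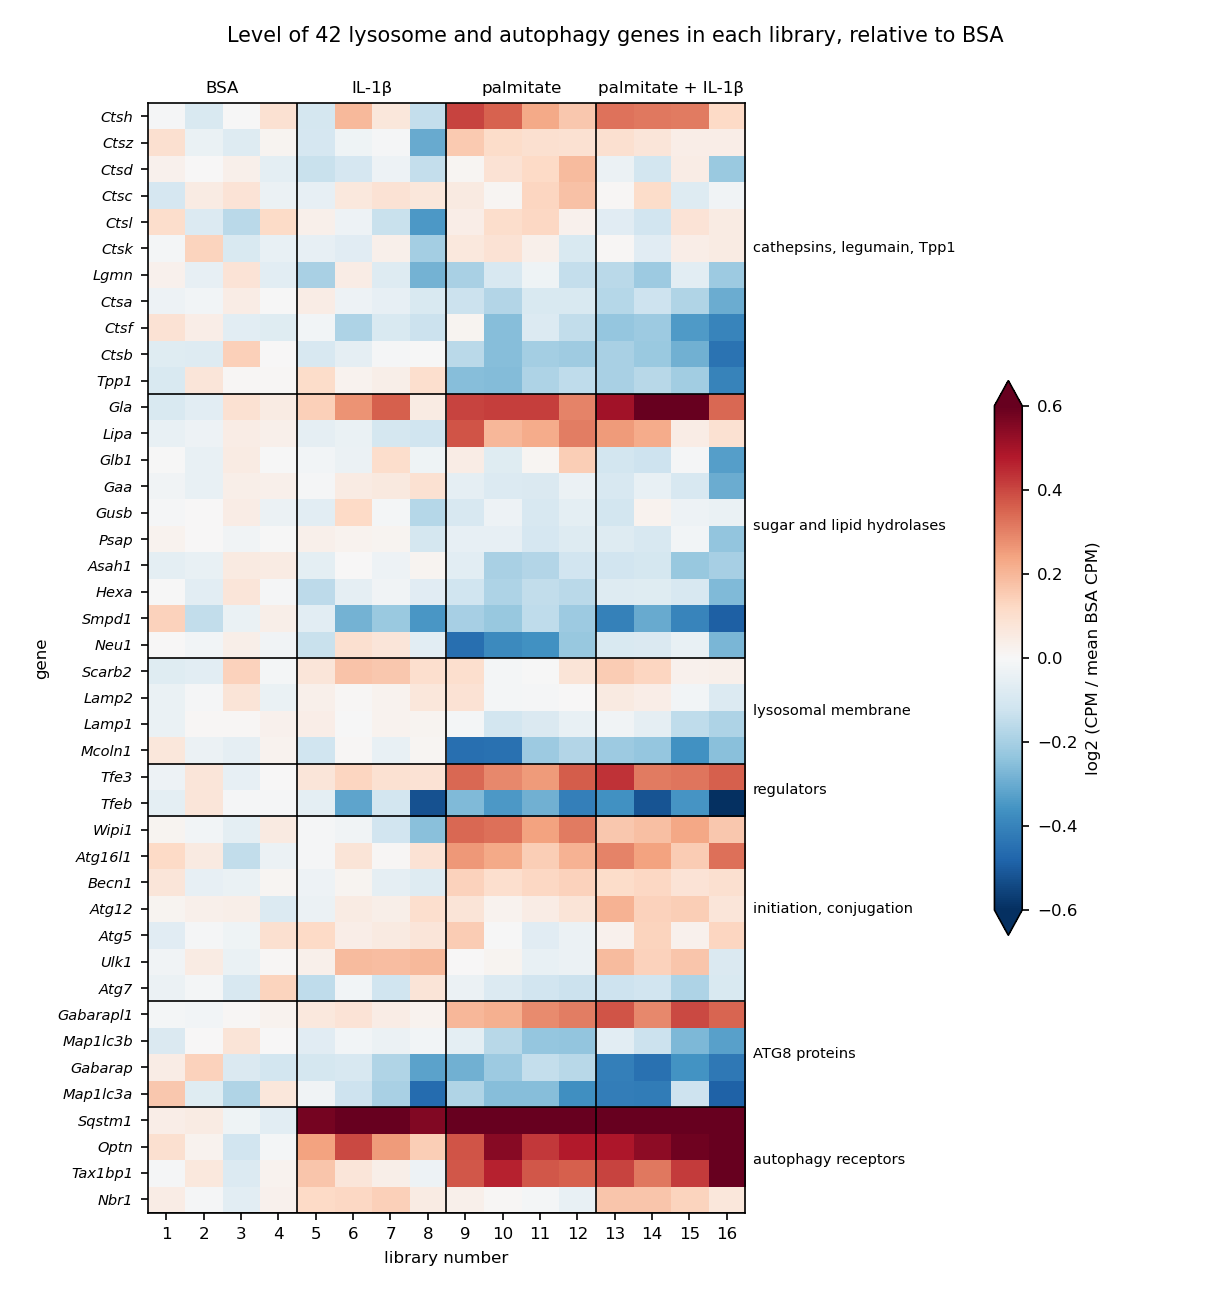
Level of each of the 42 tested genes (rows, by role) in each of the 16 libraries (columns), as log2 of CPM over the mean BSA level. Red is above and blue below the BSA mean, with colours saturating at 0.6 in either direction. The row of *Sqstm1* is saturated in most treated libraries, and the column of library 16 is the darkest blue of its group across most hydrolases.

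The 4 listed autophagy receptors had the highest median of the 7 roles, a log2 fold change of 0.43 with palmitate. For 10 other selective autophagy receptors, described below, the median was 0.04, with 3 higher and 2 lower. Of the 4 listed receptors 3 were higher and none lower with palmitate, and all 4 were higher with both agents. Of all genes, 19.8% were higher with palmitate and 24.8% with both agents. Their summed level went from 1507 ± 46.7 CPM in BSA to 2104 ± 105 with IL-1β, 2947 ± 111 with palmitate and 3719.9 ± 188 with both, most of it *Sqstm1*. *Sqstm1* encodes p62, which binds ubiquitin chains with one end and ATG8 proteins with another, and is itself degraded with its cargo. *Sqstm1* was at 1028, 1035, 983 and 958 CPM in BSA libraries 1 to 4, 1492, 1620.4, 1673 and 1471 with IL-1β, 2276, 2400.3, 2443 and 2224 with palmitate, and 2939.8, 2927, 3279 and 3108 with palmitate + IL-1β. The 4 conditions did not overlap, and every condition stood above the one before it in that order. The means were 1001 ± 36.9, 1564 ± 97.9, 2336 ± 103 and 3063 ± 165 CPM, that is 1.56 times the BSA mean with IL-1β, 2.33 times with palmitate and 3.06 times with both. Each step passed the test, with a log2 fold change of 0.64 ± 0.05 for IL-1β (adjusted p = 5.52e-12), 1.22 ± 0.05 for palmitate (adjusted p = 1.19e-19) and 1.61 ± 0.05 for both (adjusted p = 8.24e-23). IL-1β added 0.39 ± 0.05 to palmitate (adjusted p = 4.18e-07) and palmitate added 0.97 ± 0.05 to IL-1β (adjusted p = 7.67e-17). Both single folds multiplied would give 3.65 times the BSA mean. The shortfall, an interaction of -0.25 ± 0.07 on the log2 scale, passed the test narrowly (adjusted p = 0.0384). This call was lost with upper-quartile normalization, with a filter of at least 10 counts in every library, and in 10 of the 16 fits that left out 1 library. The shortfall holds for multiplied folds only. In CPM, *Sqstm1* was above BSA by 563 with IL-1β, by 1335 with palmitate and by 2062 with both, which is more than the single rises added together.

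The weight of this gene in the set is large. From BSA to palmitate, the summed level of all 43 genes was higher by 1329 CPM, and that of *Sqstm1* alone by 1335 CPM. The other 42 genes together were at 5961 CPM in BSA, 5934 with IL-1β, 5955 with palmitate and 5850 with both. In bulk RNA, more cells that express a gene and more RNA per cell cannot be told apart.

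*Optn*, optineurin, a receptor for ubiquitylated mitochondria and bacteria, followed the same order at a lower level. *Optn* was at 37.4, 35.5, 32.4 and 34.7 CPM in BSA libraries 1 to 4, 41.4, 46.1, 41.7 and 38.8 with IL-1β, 45.5, 51.0, 47.0 and 48.6 with palmitate, and 49.0, 50.7, 52.5 and 59.1 with palmitate + IL-1β. All treated libraries lay above those of BSA, while the palmitate libraries overlapped those with IL-1β at 45.5 and 46.1 CPM. *Optn* rose with palmitate (log2 fold change 0.46 ± 0.06, adjusted p = 1.75e-07) and with IL-1β (log2 fold change 0.26 ± 0.06, adjusted p = 0.00249), and the difference between palmitate + IL-1β and palmitate did not pass (0.13 ± 0.06, adjusted p = 0.171). *Tax1bp1*, which links ubiquitylated cargo to the early autophagy machinery, responded to palmitate. *Tax1bp1* was at 297, 311, 282 and 303 CPM in BSA libraries 1 to 4, 335, 313, 306 and 292 with IL-1β, 386, 410.01, 387 and 383 with palmitate, and 395, 372, 399 and 492 with palmitate + IL-1β. All palmitate libraries, with and without IL-1β, lay above those of BSA and of IL-1β, and library 16 was the highest at 492 CPM. It rose with palmitate (log2 fold change 0.39 ± 0.06, adjusted p = 2.41e-05), and its value with IL-1β was 0.06 ± 0.06 (adjusted p = 0.578). *Nbr1*, a receptor built like p62, had its lower levels in the conditions without IL-1β. *Nbr1* was at 178, 172, 165 and 176 CPM in BSA libraries 1 to 4, 187, 188, 190.4 and 179 with IL-1β, 176, 173, 171 and 167 with palmitate, and 194, 194, 189.5 and 181 with palmitate + IL-1β. The palmitate libraries lay within the range of BSA and the IL-1β libraries lay above it. The call for IL-1β missed the threshold (0.11 ± 0.04, adjusted p = 0.0626), whereas the rise from palmitate to palmitate + IL-1β passed (log2 fold change 0.14 ± 0.04, adjusted p = 0.0203) and was lost in 4 of the 8 fits without 1 library.

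**Figure D3:**
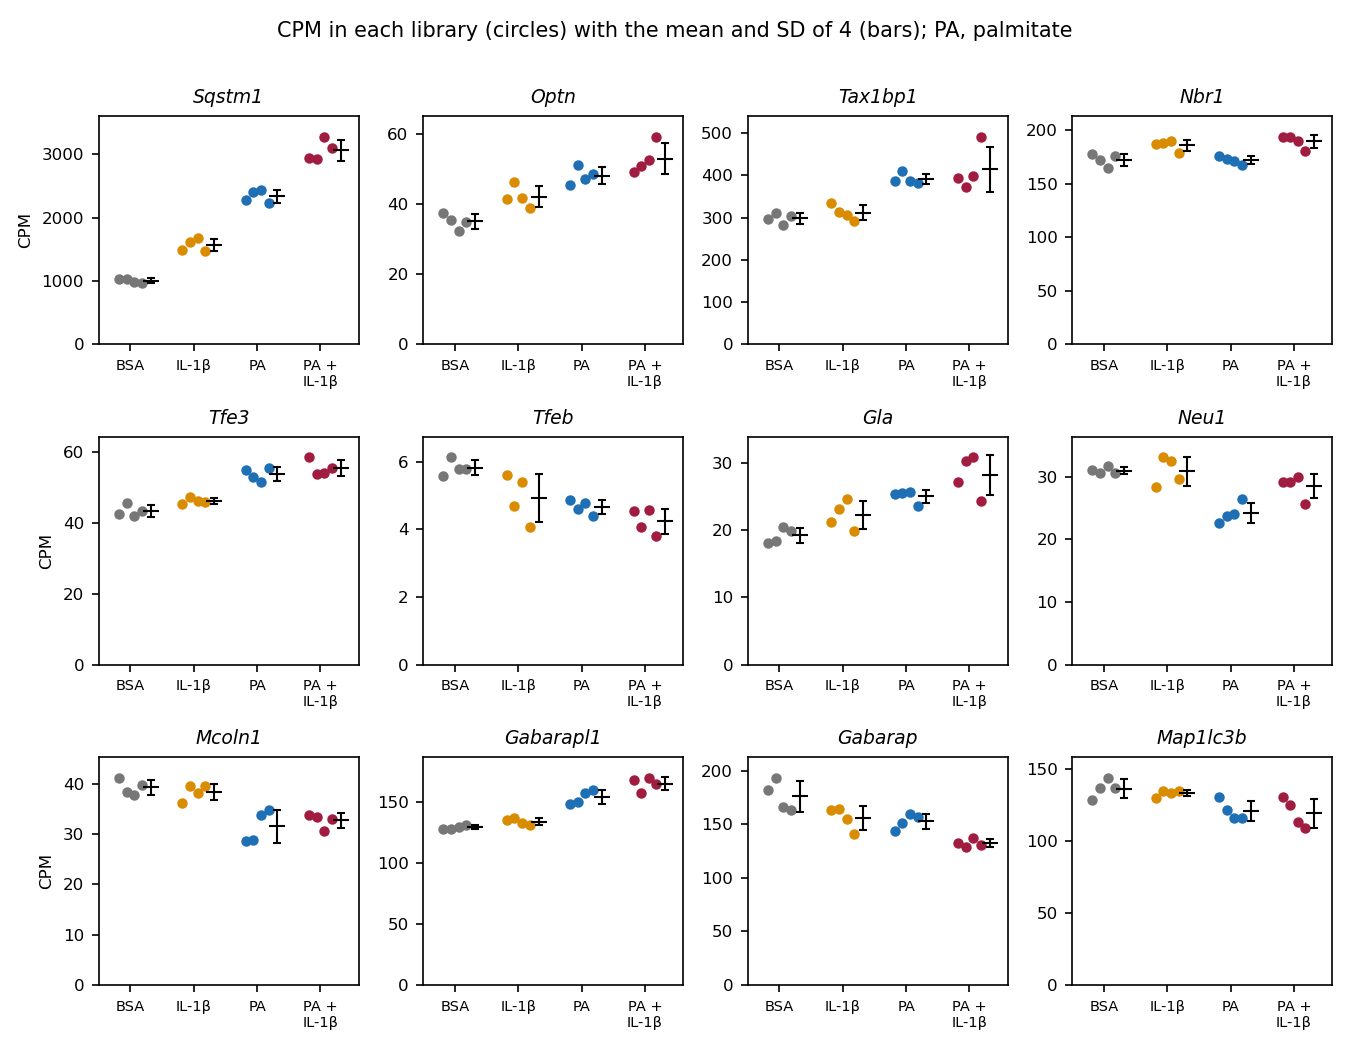
CPM of 12 genes in each library (circles) by condition, with the mean and SD of 4 libraries (bars); every vertical axis starts at 0, and PA is palmitate. *Sqstm1* separates all 4 conditions, *Tfe3* and *Tax1bp1* separate the palmitate conditions from the rest, and *Neu1* is lowest with palmitate alone.

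The regulators moved in opposite directions. *Tfe3* was higher and *Tfeb* lower with palmitate. *Tfe3* was at 42.4, 45.5, 41.8 and 43.4 CPM in BSA libraries 1 to 4, 45.5, 47.3, 46.1 and 45.9 with IL-1β, 55.0, 52.8, 51.7 and 55.6 with palmitate, and 58.5, 53.7, 54.0 and 55.5 with palmitate + IL-1β. No palmitate library, with or without IL-1β, overlapped a library without palmitate. *Tfe3* rose by 0.31 ± 0.05 on the log2 scale with palmitate (adjusted p = 1.21e-06) and its value with IL-1β was 0.09 ± 0.05 (adjusted p = 0.183). *Tfeb* was at 5.59, 6.14, 5.80 and 5.80 CPM in BSA libraries 1 to 4, 5.61, 4.69, 5.41 and 4.06 with IL-1β, 4.86, 4.60, 4.77 and 4.40 with palmitate, and 4.53, 4.07, 4.57 and 3.79 with palmitate + IL-1β. Every palmitate library lay below every BSA library, and the IL-1β libraries spread over both ranges. *Tfeb* fell with palmitate (log2 fold change -0.33 ± 0.10, adjusted p = 0.0134) and with both agents against BSA (log2 fold change -0.45 ± 0.11, adjusted p = 0.000679), and its value with IL-1β alone was -0.23 ± 0.11 (adjusted p = 0.146). Between palmitate + IL-1β and IL-1β the difference did not pass (-0.22 ± 0.11, adjusted p = 0.123). *Tfeb* was counted 98 to 417 times per library, *Tfe3* 1096 to 4795 times. Their close relative *Mitf*, not among the 43 genes but on a list of genes around TFEB control, rose by 0.90 ± 0.06 with palmitate (adjusted p = 1.89e-14), from 18.2 ± 1.20 to 33.9 ± 1.81 CPM.

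The CLEAR element was searched for as its core of 8 letters, TCACGTGA, in the RefSeq promoters (250 bases before to 50 after the start site, GRCm38.p6) of 36 of the 43 genes, as was the E-box CACGTG that the core contains. Both read the same on either strand. The core was found in 4 of the 36 genes (11.1%) and in 304 of 27025 genes (1.12%), and the E-box in 12 (33.3%) and in 2187 (8.09%). The 7 genes *Ctsb*, *Ctsh*, *Asah1*, *Map1lc3a*, *Becn1*, *Atg12* and *Atg16l1* had no entry. The stretches that hold the core are shown because they are the places where TFEB and TFE3 could be looked for. They are read 5′ to 3′ in the direction of the gene at their exact match in GRCm39, with the core in capitals. They lie at chr2:164675654-164675713, plus strand (*Ctsa*), chr7:141941630-141941689, minus strand (*Ctsd*), chrX:133501949-133502004, minus strand (*Gla*) and chr8:3550447-3550506, plus strand (*Mcoln1*), with the core starting 13, 99, 228 and 46 bases before the start site. The *Ctsa* stretch belongs to one of its 2 listed promoters and holds 2 copies. The position given is that of the first copy, and the second copy begins just after the start site.
Ctsa: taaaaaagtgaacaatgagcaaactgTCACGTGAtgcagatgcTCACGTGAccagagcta
Ctsd: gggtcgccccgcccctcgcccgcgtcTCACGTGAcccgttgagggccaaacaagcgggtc
Gla: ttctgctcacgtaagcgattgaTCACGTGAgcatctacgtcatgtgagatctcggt
Mcoln1: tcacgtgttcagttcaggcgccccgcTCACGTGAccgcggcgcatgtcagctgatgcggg
These 4 genes did not move one way. With palmitate, *Gla* rose (0.39 ± 0.07), *Mcoln1* and *Ctsa* fell (-0.32 ± 0.06 and -0.12 ± 0.04), and *Ctsd* did not pass (0.10 ± 0.05, adjusted p = 0.0945). Of the 8 other genes with an E-box (*Lamp1*, *Ctsf*, *Ctsl*, *Lgmn*, *Glb1*, *Gaa*, *Atg5* and *Atg7*), none passed with palmitate against BSA, and their log2 fold changes lay between -0.13 and 0.07. With both agents against BSA, *Lamp1* (-0.10 ± 0.04), *Ctsf* (-0.29 ± 0.06), *Lgmn* (-0.16 ± 0.06) and *Gaa* (-0.13 ± 0.05) were lower. Those of *Lamp1*, *Lgmn* and *Gaa* were lost without library 16. *Ctsl*, *Glb1*, *Atg5* and *Atg7* did not pass in that comparison either. The 1 listed promoter of *Sqstm1*, the gene with the largest change, is shown whole for comparison (chr11:50101598-50101897, minus strand). It holds neither sequence in these 300 bases. The annotated gene reaches further upstream, to position 50107684, and the bases there were not searched.
Sqstm1: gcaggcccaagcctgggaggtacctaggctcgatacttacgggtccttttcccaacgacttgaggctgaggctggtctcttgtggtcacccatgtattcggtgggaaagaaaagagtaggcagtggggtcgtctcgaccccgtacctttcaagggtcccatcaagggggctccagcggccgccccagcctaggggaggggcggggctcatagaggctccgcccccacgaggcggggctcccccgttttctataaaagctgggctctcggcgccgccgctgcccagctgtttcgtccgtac

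Of the lysosomal membrane proteins, 1 of 4 (25%) changed with palmitate, beside 37.3% of all genes. This was *Mcoln1*, the calcium channel TRPML1, whose opening releases lysosomal calcium and activates TFEB. *Mcoln1* was at 41.2, 38.3, 37.8 and 39.8 CPM in BSA libraries 1 to 4, 36.1, 39.5, 38.1 and 39.6 with IL-1β, 28.7, 28.8, 33.8 and 34.8 with palmitate, and 33.8, 33.4, 30.6 and 33.0 with palmitate + IL-1β. All 8 libraries with palmitate lay below all 8 without it. *Mcoln1* fell with palmitate (log2 fold change -0.32 ± 0.06, adjusted p = 4.08e-05) and when palmitate was added to IL-1β (log2 fold change -0.23 ± 0.06, adjusted p = 0.00269), while its value with IL-1β alone was -0.04 ± 0.06 (adjusted p = 0.748). *Lamp1* and *Lamp2*, the main structural proteins of the membrane, were among the most highly expressed members and among the least changed. *Lamp1* had 877 ± 17.7 CPM in BSA and 839.9 ± 24.7 CPM with palmitate (-0.06 ± 0.04, adjusted p = 0.247). It passed with both agents against BSA (log2 fold change -0.10 ± 0.04, adjusted p = 0.0419), a call lost in 4 of the 8 fits without 1 library, library 16 among them. *Lamp2* was between -0.03 and 0.03 in every comparison other than the interaction. *Scarb2* (LIMP-2), which carries glucocerebrosidase to the lysosome, passed in none, at 0.13 ± 0.05 with IL-1β (adjusted p = 0.0647).

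Among the 21 tested hydrolases (*Psap* included), falls outnumbered rises against BSA with palmitate and with both agents. With palmitate 3 were higher (14.3%, beside 19.8% of all genes) and 7 lower (33.3%, beside 17.5%), with a median log2 fold change of -0.07. With both agents 3 were higher (14.3%, beside 24.8% of all genes) and 9 lower (42.9%, beside 22.5%), with a median of -0.12. With IL-1β against BSA 1 was higher and 1 lower (9.52% called, beside 15.1% of all genes). Between palmitate and IL-1β 4 were higher and 4 lower (38.1% called, beside 31.6%). The calls of *Lgmn*, *Hexa* and *Gaa* with both agents were lost without library 16. In the summed level the change was small, from 2909 ± 40.1 CPM in BSA to 2803 ± 18.6 with palmitate and 2687 ± 107 with both. Among the proteases, *Ctsh*, an aminopeptidase, rose with palmitate (log2 fold change 0.29 ± 0.07, adjusted p = 0.00144), from 16.8 ± 0.858 to 20.6 ± 1.61 CPM. *Ctsb* (-0.21 ± 0.05), *Tpp1*, a tripeptidyl peptidase (-0.21 ± 0.05), and *Ctsa*, which protects neuraminidase and β-galactosidase in a complex (-0.12 ± 0.04), fell. The call of *Ctsa* was lost without BSA library 3 or palmitate library 10. The other 7 tested proteases (*Ctsc*, *Ctsd*, *Ctsf*, *Ctsk*, *Ctsl*, *Ctsz* and legumain, *Lgmn*) did not pass with palmitate, between -0.13 and 0.11. None of the 11 passed with IL-1β alone.

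*Ctsd* was the one protease that changed when IL-1β was added to palmitate. *Ctsd* was at 225, 221, 225 and 211 CPM in BSA libraries 1 to 4, 201, 206, 216 and 199.8 with IL-1β, 222, 234, 239.7 and 252 with palmitate, and 215, 204, 228 and 189 with palmitate + IL-1β. The palmitate libraries overlapped both those of BSA and those of palmitate + IL-1β. *Ctsd* fell from palmitate to palmitate + IL-1β (log2 fold change -0.18 ± 0.05, adjusted p = 0.0134) and was higher with palmitate than with IL-1β (log2 fold change 0.20 ± 0.05, adjusted p = 0.00150). The first of these was lost without palmitate library 12 or without library 16. The second was not followed through the alternatives. In the annotation, 29.2% of the exon length of *Ctsd* overlaps *Gm49369* on the same strand, and reads in such a stretch cannot be given to 1 gene, so that its level is uncertain. The same holds in part for *Ctsl* and *Glb1*, which share 9.97% and 8.09% of their canonical transcripts with other genes at 95% identity or more.

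The sugar and lipid hydrolases held both the largest rise and the largest fall among the enzymes for palmitate against BSA. *Gla*, α-galactosidase A, which removes galactose from globotriaosylceramide and is missing in Fabry disease, rose. *Gla* was at 18.1, 18.4, 20.5 and 19.9 CPM in BSA libraries 1 to 4, 21.2, 23.2, 24.7 and 19.9 with IL-1β, 25.5, 25.6, 25.7 and 23.7 with palmitate, and 27.3, 30.3, 30.9 and 24.4 with palmitate + IL-1β. The palmitate libraries, with and without IL-1β, all lay above those of BSA. *Gla* rose with palmitate (log2 fold change 0.39 ± 0.07, adjusted p = 4.95e-05), and with both agents reached 28.2 ± 3.00 CPM from 19.2 ± 1.17 CPM in BSA (log2 fold change 0.56 ± 0.07, adjusted p = 8.64e-08). The rise with IL-1β alone was close to the threshold (log2 fold change 0.22 ± 0.07, adjusted p = 0.0427) and was lost in 5 of the 8 fits without 1 library. *Lipa*, the acid lipase that frees cholesterol and fatty acids from lipids delivered to the lysosome, rose with palmitate (log2 fold change 0.28 ± 0.05, adjusted p = 2.66e-05), from 81.1 ± 2.51 to 98.3 ± 5.57 CPM. With IL-1β its value was -0.08 ± 0.05 (adjusted p = 0.321).

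*Neu1*, the sialidase, showed the largest fall with palmitate of all 42 genes. *Neu1* was at 31.0, 30.7, 31.7 and 30.6 CPM in BSA libraries 1 to 4, 28.3, 33.2, 32.6 and 29.7 with IL-1β, 22.6, 23.8, 24.1 and 26.5 with palmitate, and 29.2, 29.2, 30.0 and 25.7 with palmitate + IL-1β. Every palmitate library lay below every library of the BSA and IL-1β conditions, while palmitate + IL-1β libraries 13 to 15 lay above the palmitate and below the BSA range and library 16 lay within the palmitate range. *Neu1* fell with palmitate (log2 fold change -0.35 ± 0.06, adjusted p = 1.44e-05) and rose again when IL-1β was added to palmitate (log2 fold change 0.24 ± 0.06, adjusted p = 0.00910). IL-1β alone gave -0.00 ± 0.06 (adjusted p = 0.989). Its interaction of 0.24 ± 0.08 was the highest of the 42 genes and did not pass (adjusted p = 0.216). *Smpd1*, acid sphingomyelinase, which makes ceramide, was lower with either agent. *Smpd1* was at 38.8, 31.9, 34.3 and 36.1 CPM in BSA libraries 1 to 4, 33.7, 29.0, 30.2 and 27.7 with IL-1β, 30.7, 30.1, 31.7 and 30.4 with palmitate, and 26.6, 28.6, 26.8 and 25.1 with palmitate + IL-1β. The palmitate libraries lay below those of BSA, those of IL-1β overlapped BSA, and 3 of the 4 libraries with both agents lay below every library of any other condition. *Smpd1* fell with palmitate (log2 fold change -0.20 ± 0.06, adjusted p = 0.00872, lost without BSA library 1), with IL-1β (log2 fold change -0.23 ± 0.06, adjusted p = 0.0102, lost without BSA library 1 or IL-1β library 8) and with both (log2 fold change -0.40 ± 0.06, adjusted p = 2.53e-06). Its fall from palmitate to palmitate + IL-1β (log2 fold change -0.19 ± 0.06, adjusted p = 0.0400) was lost in 7 of the 8 fits without 1 library. *Hexa* (-0.15 ± 0.05) and acid ceramidase, *Asah1* (-0.14 ± 0.04), also fell with palmitate, the call of *Asah1* being lost without palmitate library 10. *Glb1*, *Gaa*, *Gusb* and *Psap* did not pass, between -0.07 and 0.03.

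The ATG8 proteins split. *Gabarapl1* rose and the other 3 fell with palmitate and with both agents. Of all genes, 19.8% rose and 17.5% fell with palmitate, and 24.8% rose and 22.5% fell with both agents. *Gabarapl1* went from 129 ± 1.58 CPM in BSA to 154 ± 5.59 with palmitate (log2 fold change 0.25 ± 0.04, adjusted p = 4.39e-06) and 165 ± 5.38 with both (log2 fold change 0.35 ± 0.04, adjusted p = 5.91e-09). *Gabarap*, its close paralogue, moved the other way. *Gabarap* was at 182, 194, 166 and 163 CPM in BSA libraries 1 to 4, 164, 165, 155 and 141 with IL-1β, 144, 151, 159.7 and 157 with palmitate, and 133, 129, 137 and 131 with palmitate + IL-1β. The libraries with both agents lay below all others, and the libraries of palmitate and IL-1β overlapped each other. *Gabarap* fell with palmitate (log2 fold change -0.20 ± 0.05, adjusted p = 0.00239), with IL-1β (log2 fold change -0.17 ± 0.05, adjusted p = 0.0225), with both (log2 fold change -0.41 ± 0.05, adjusted p = 1.02e-07) and from palmitate to both (log2 fold change -0.21 ± 0.05, adjusted p = 0.00858). The call for IL-1β was lost in 4 of the 8 fits without 1 library. *Map1lc3b*, LC3B, whose lipid-bound form is the usual marker of autophagosomes, changed little. *Map1lc3b* was at 128, 137, 144 and 137 CPM in BSA libraries 1 to 4, 130.2, 135, 133 and 135 with IL-1β, 131, 122, 116 and 116 with palmitate, and 131, 125, 113 and 109 with palmitate + IL-1β. The palmitate libraries overlapped those of BSA, with library 9 above BSA library 1. Its fall with palmitate passed (log2 fold change -0.17 ± 0.05, adjusted p = 0.00769), and its values with IL-1β (-0.03 ± 0.05) and from palmitate to both (-0.02 ± 0.05) did not. In 31.8% of its canonical transcript, *Map1lc3b* is at least 95% identical to other genes, *Gm12727* first among them, and reads that align to several places were not counted. *Map1lc3a*, LC3A, was lower. *Map1lc3a* was at 17.4, 14.8, 13.7 and 16.4 CPM in BSA libraries 1 to 4, 15.3, 14.3, 13.6 and 11.3 with IL-1β, 13.7, 13.0, 13.1 and 12.1 with palmitate, and 11.7, 11.6, 14.3 and 11.1 with palmitate + IL-1β. The palmitate libraries touched those of BSA at 13.7 CPM. *Map1lc3a* fell with palmitate (log2 fold change -0.27 ± 0.09, adjusted p = 0.0167), a call lost without BSA library 1 or palmitate library 12.

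Of the 7 genes of initiation and conjugation, 3 rose with palmitate and none fell, and the 42.9% called were near the 37.3% of all genes. *Wipi1*, which binds phosphatidylinositol 3-phosphate on the forming membrane, rose most (log2 fold change 0.31 ± 0.05, adjusted p = 2.59e-06), from 90.8 ± 3.06 to 112 ± 3.50 CPM, and was at 103 ± 2.42 CPM with both agents. *Atg16l1*, part of the complex that places ATG8 on membranes, rose by 0.21 ± 0.06 (adjusted p = 0.00472) and *Becn1*, Beclin 1, by 0.12 ± 0.04 (adjusted p = 0.0143). Both calls were lost with upper-quartile normalization, and that of *Becn1* also without BSA library 2. *Atg5*, *Atg7*, *Atg12* and *Ulk1* did not pass with palmitate, between -0.09 and 0.05. *Ulk1*, the kinase that starts autophagy, was the one gene of this group called with IL-1β. *Ulk1* was at 58.8, 61.6, 57.9 and 59.9 CPM in BSA libraries 1 to 4, 60.8, 67.9, 67.7 and 68.3 with IL-1β, 59.7, 60.3, 57.8 and 58.1 with palmitate, and 67.9, 65.6, 66.9 and 56.1 with palmitate + IL-1β. IL-1β library 5 lay within the BSA range and the other 3 above it. The rise with IL-1β (log2 fold change 0.15 ± 0.05, adjusted p = 0.0443) was lost in 7 of the 8 fits without 1 library.

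Another 121 genes of the same pathways, none of them among the 43, were tested as 6 lists. With palmitate 16 were higher and 30 lower, with a median log2 fold change of -0.05. The 38.0% called were close to the 37.3% of all genes, with 13.2% higher and 24.8% lower beside 19.8% and 17.5%. Of 20 other lysosomal membrane proteins and transporters, 8 fell and none rose. The largest falls on the log2 scale were those of the cystine transporter *Ctns* (-0.48 ± 0.05), the cation channel *Tpcn2* (-0.29 ± 0.09, lost without palmitate library 10) and the potassium and proton channel *Tmem175* (-0.24 ± 0.06). Of 16 subunits of the V-ATPase, the proton pump that acidifies the lysosome, 7 fell and 1 rose. *Atp6v0d1* (-0.33 ± 0.05), *Atp6v0a1* (-0.22 ± 0.04) and the catalytic subunit *Atp6v1a* (-0.18 ± 0.04) fell most, and the subunit that rose was *Atp6v0a2* (0.10 ± 0.04), a call lost in 7 of the 8 fits without 1 library. Of 30 other hydrolases, activators and sorting genes, 5 rose and 8 fell. The largest rise was not of a hydrolase but of *Gnptab*, the phosphotransferase that makes the mannose 6-phosphate tag (0.97 ± 0.04), with *M6pr*, a receptor for that tag (0.31 ± 0.04), and *Ctso* (0.33 ± 0.07) also higher. The sulfatases *Arsa* (-0.29 ± 0.06) and *Arsb* (-0.27 ± 0.05) were lower.

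The next list held 17 genes around TFEB control at the lysosome, with *Mitf* included as a relative of TFEB. Of these, 4 rose and 3 fell with palmitate, and the 41.2% called were near the 37.3% of all genes. Besides *Mitf*, the kinase *Mtor* (0.22 ± 0.06) and its partner *Rptor* (0.21 ± 0.05) were higher. *Rragd*, a Rag GTPase that recruits mTORC1 and TFEB to the lysosome, fell (log2 fold change -0.72 ± 0.06, adjusted p = 1.85e-11), from 21.9 ± 0.714 to 13.3 ± 0.357 CPM. *Lamtor1* (-0.17 ± 0.05) and *Tsc2* (-0.16 ± 0.05) fell less. Of 28 other autophagy genes, 3 rose (*Wipi2*, *Atg2a* and *Ambra1*, at most 0.23) and 2 fell (*Gabarapl2* and *Rubcn*), which at 17.9% called is below the 37.3% of all genes. The calls of *Ambra1*, *Gabarapl2* and *Rubcn* were lost in 5, 3 and 1 of the 8 fits without 1 library. Of 10 other selective autophagy receptors, 3 rose and 2 fell, led by the mitophagy receptor *Bnip3* (0.36 ± 0.05) and the glycogen receptor *Stbd1* (-0.25 ± 0.05). The calls of the other rises were lost in 1 and 4 of the 8 fits, and that of the other fall in 6. With IL-1β alone, 15 of the 121 genes rose and 1 fell. The 13.2% called (12.4% higher and 0.826% lower) were near the 15.1% of all genes (10.1% higher and 4.97% lower), though the lower share was smaller. The split of all genes with IL-1β depended on the scaling, as given above. The leading rises were those of *Epg5*, a tether for autophagosome fusion (0.36 ± 0.08), *Igf2r*, the larger mannose 6-phosphate receptor (0.32 ± 0.07), and *Gnptab* (0.30 ± 0.04). The fall was that of *Ccpg1*, a receptor for ER-phagy (-0.52 ± 0.15), lost without BSA library 3 or IL-1β library 7. *Ctns*, which fell with palmitate, rose with IL-1β (0.18 ± 0.05), a call lost in 4 of the 8 fits without 1 library.

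**Figure D4:**
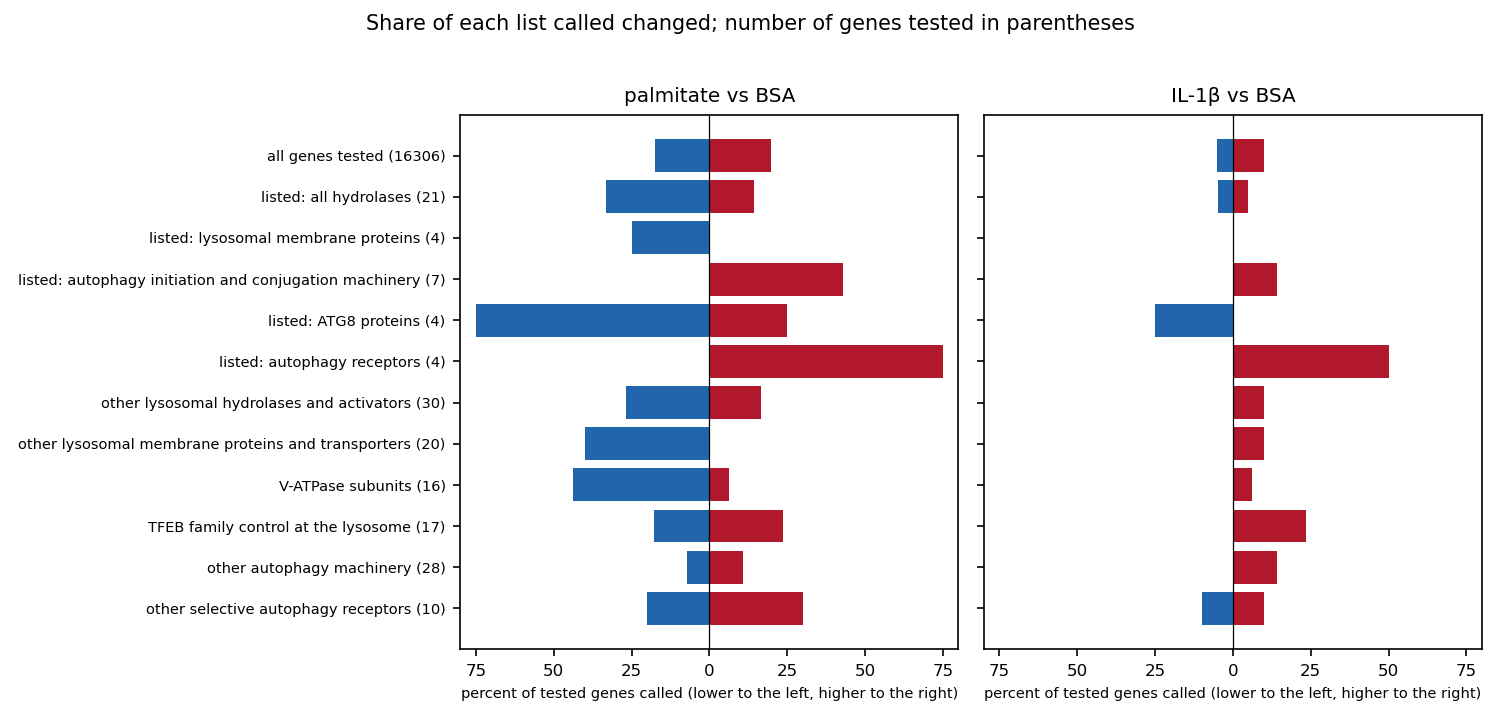
Percent of the tested genes of each list called lower (blue, to the left) or higher (red, to the right) with palmitate (left panel) and with IL-1β (right panel) against BSA, with all 16306 genes in the top row. With palmitate, 8 of 20 other membrane proteins and 7 of 16 V-ATPase subunits were called lower, beside 17.5% of all genes. With IL-1β 1 of the 121 other pathway genes was called lower, beside 4.97% of all genes.

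The effect of palmitate could be measured in separate libraries without and with IL-1β, as palmitate against BSA and as palmitate + IL-1β against IL-1β. Of 42 genes, 19 were called in both and all in the same direction, 11 higher and 8 lower. None was called in opposite directions. Another 4 (*Neu1*, *Tfeb*, *Hexa* and *Map1lc3a*, all lower) were called without IL-1β only, and 4 (*Ctsz*, higher, and *Ctsf*, *Gaa* and *Lamp1*, lower) with IL-1β only. Such a split does not show that the effects differ, and none of these 8 genes passed the test of the interaction. Across the 42 genes the log2 fold changes of both comparisons had a Pearson correlation of 0.956, and of 0.929 without *Sqstm1* (41 genes). These are descriptions across genes, which are not independent replicates and share libraries within each comparison. On the log2 scale, *Sqstm1* was raised by palmitate by 1.22 without and 0.97 with IL-1β, *Tax1bp1* by 0.39 and 0.41, *Gabarapl1* by 0.25 and 0.30, and *Wipi1* by 0.31 and 0.28.

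**Figure D5:**
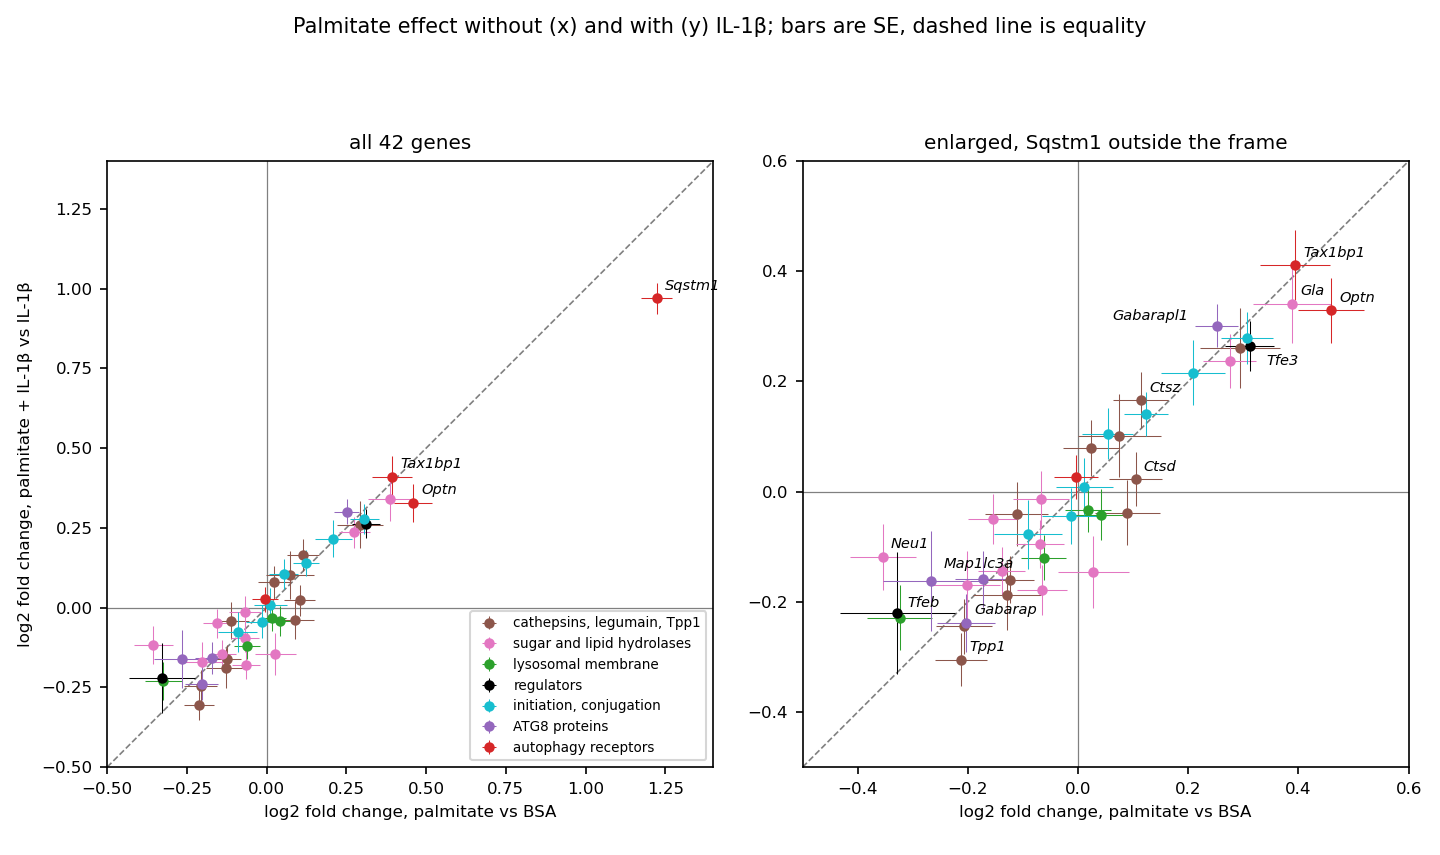
Log2 fold change of 42 genes for palmitate against BSA (horizontal) and for palmitate + IL-1β against IL-1β (vertical), coloured by role, with SE bars and a dashed line of equality; the right panel enlarges the centre. Most genes lie near the line, *Sqstm1* lies below it at 1.22 and 0.97, and *Neu1* lies above it at -0.35 and -0.12.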

How the data were processed

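Bulk RNA-seq was performed on 16 libraries, 4 per condition. Per the labels and the study's methods, reads were trimmed with Trimmomatic 0.39, aligned with STAR 2.7.10a to GRCm39 (GENCODE vM33) and counted per gene with HTSeq 2.0.9. The authors deposited raw counts, which are not normalized. The library kit is given as one for stranded total RNA in the labels and as oligo(dT)-primed in the study's methods, and which applied is not known here. Summary rows that name no gene (18.3 to 21.4% of each library) were left out of library sizes.

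Genes were kept with filterByExpr (minimum count 10, minimum total count 15), which left 16306 of 38131 genes with a count. Counts were scaled by TMM (factors 0.970 to 1.04) and fitted with edgeR 4.0.16 in R 4.3.3 (robust quasi-likelihood F-test, all 16 libraries, no covariate). P-values were adjusted by Benjamini-Hochberg over all tested genes, a call was an adjusted p under 0.05, and errors of log2 fold changes are SE, taken as the absolute log2 fold change over the root of F. The biological coefficient of variation was 6.08%. No pair of replicates was a repeated library (chi-square per degree of freedom 2.53 to 17.6). Depth limits precision at low counts, where 3 counts set the floor.

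Counts were simulated for palmitate against BSA with 200 genes changed, drawn at random from those tested (16037 genes in the fit). The test called 21 of 67 genes changed by 0.3, 43 of 64 changed by 0.5 and 55 of 67 changed by 1 on the log2 scale. It also called 8 of 15839 unchanged genes. In the real comparison 37.3% of genes passed. The adjustment of p-values depends on that share, so these numbers do not give the sensitivity in the real data. Alternatives were DESeq2 1.42.0, upper-quartile normalization, other filters on low counts, no mitochondrial or ribosomal RNA genes, only the conditions compared, and leaving out each library. Exon lengths came from GENCODE vM39 (56323 of 56941 identifiers matched), shared sequence from BLAST 2.17.0+ (at least 95% identity) and promoters from RefSeq.

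The genes and lists were chosen with earlier results of these data known. Full values are given for the 4 largest called rises and 4 largest called falls with palmitate, with IL-1β, from palmitate to both agents and in the interaction, and for *Tfeb*, *Tfe3*, *Sqstm1* and *Map1lc3b*. Of other lists, up to 3 rises and 3 falls are named, except 1 gene that is not reported here.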

Additional observations from a re-analysis of the deposited data

Results flagged for a closer look

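In 8 of 168 groups of 4 libraries (42 genes in 4 conditions), 1 library lay farther from the other 3 than Dixon's 95% limit allows, and chance gives about 1 in 20. In the palmitate + IL-1β condition this was library 16 for *Ctsh* (18.3 CPM, others 20.9 to 21.0) and *Hexa* (100.3 CPM, others 112.8 to 114.8). With IL-1β it was library 8 for *Psap* (462 CPM, others 504 to 509), library 7 for *Glb1* (22.0 CPM, others 20.0 to 20.3) and library 5 for *Ulk1* (60.8 CPM, others 67.7 to 68.3). With palmitate it was library 9 for *Lamp2* (626 CPM, others 585 to 592), library 12 for *Gla* (23.7 CPM, others 25.5 to 25.7) and library 10, the deepest, for *Tax1bp1* (410.01 CPM, others 383 to 387).

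The interaction term of the edgeR fit was called for *Sqstm1*, at -0.25 on the log2 scale, and among the other pathway genes for *Gnptab*, at -0.30. The call of *Sqstm1* was lost in 10 of the 16 fits that left out 1 library, so that a difference is not settled.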

How the results depend on the processing

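Calls (a gene in a comparison) were followed through the alternatives in every comparison other than palmitate against IL-1β. Of these 87 calls, 73 kept the call under every alternative other than leaving out a library, 58 under every alternative, and none changed direction. Upper-quartile normalization lost 10, no filter on low counts 8, at least 10 counts in every library 4, fitting only the conditions compared 4, and leaving out mitochondrial and ribosomal RNA genes 1. The interaction count of 1 became 0 with upper-quartile normalization (*Sqstm1* -0.22, adjusted p = 0.116) and with at least 10 counts in every library (*Sqstm1* -0.25, adjusted p = 0.0539). The cause was not tested. Without any filter, the share of higher calls among all genes from palmitate to palmitate + IL-1β moved from 58.2% to 48.4%, with 2 of the genes described here higher and 3 lower.

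Leaving out 1 library gave 21 to 25 changed genes for palmitate, 2 to 6 for IL-1β, 25 to 30 for both agents, 3 to 6 for IL-1β added to palmitate, 20 to 26 for palmitate added to IL-1β, 15 to 20 for palmitate against IL-1β and 0 to 1 for the interaction. IL-1β gave 2 without BSA library 1, and 3 without BSA library 2 or IL-1β library 7. IL-1β added to palmitate gave 3 without palmitate library 12. *Map1lc3b*, not called in either, lay between -0.0703 and 0.0233 from palmitate to both, with the sign changed in 3 of 8 fits, and between -0.0345 and 0.0562 for the interaction, with the sign changed in 5 of 16. No paired analysis was made, because the labels do not say whether libraries of different conditions share a mouse or culture. The library numbers 1 to 16 do not show this either. Any such pairing was not taken into account in the tests.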
